A study of Mus musculus with 6 samples.

Results

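This account covers 9 mouse genes of platelets and megakaryocytes, Treml1, Pf4, Ppbp, Gp9, Gp5, Gp1ba, Gp1bb, Gp6 and Tubb1, among the 55291 genes listed for 6 liver tumours. The genes were named with the difference between the tumour groups already known, so that difference is given here as a description and not as a test. Each tumour was sequenced as 1 bulk library of polyadenylated RNA and came from the RIL-175/PD-1R model. RIL-175 is a mouse liver cancer line, and the meaning of PD-1R is not stated. LysM-Cre mice, which carry Cre in macrophages, monocytes and neutrophils, were the hosts of the 3 Cre_PD1 tumours. The 3 MKO_PD1 tumours grew in TREM2-MKO mice, in which Trem2 is knocked out in myeloid cells. All 6 mice had received anti-PD-1, which blocks a receptor that restrains T cells, and no tumour without that antibody is included. The labels used here give no age, and they do not say that replicate numbers pair the tumours.

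Platelets are cell fragments without a nucleus that are shed by megakaryocytes, and the RNA they carry was made in those cells. Their alpha granules hold the chemokines encoded by Pf4 and Ppbp and the receptor encoded by Treml1, which reaches the surface when the platelet is activated. Gp1ba, Gp1bb, Gp9 and Gp5 encode the parts of the receptor that holds platelets to von Willebrand factor, Gp6 encodes a collagen receptor, and Tubb1 encodes the tubulin of the ring of microtubules under the platelet membrane. In bulk RNA, fewer cells of a type and less RNA per cell cannot be told apart.

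Of the 9 genes, 8 had reads and 7 passed the level filter of at least 1 TPM (a read level per exon length, scaled to 1000000 in each library) in at least 3 of 6 libraries. Gp6 was too low, and Gp1bb was listed at 0 in every library. In the annotation, 92.9% of the exon bases of Gp1bb (1938 of 2087) also belong to exons of Sept5 or Gm49601. How reads on shared bases were counted is not given in the sources used here, so the 0 is not read as a level. No other gene of the 9 shared exon bases with another gene. Gp5 and Tubb1 passed the filter only through the MKO_PD1 libraries.

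Except for Gp1ba, every one of the 8 genes with reads had a higher mean level in MKO_PD1 than in Cre_PD1. For 6 of them, Treml1, Ppbp, Gp9, Gp5, Gp6 and Tubb1, the lowest MKO_PD1 library lay above the highest Cre_PD1 library. Such a separation was found for 7.12% of all 30804 genes with reads and for 10.1% of the 16506 genes that passed the filter, and since the genes were chosen on this contrast nothing is read from the count. Pf4 and Gp1ba overlapped between the groups. The same 6 genes were separate with median-of-ratios scaling, with the hepatocyte markers removed before scaling and in recovered reads scaled to library totals. No gene of the 9 was separate and lower, where 17.7% of all genes with reads were. With median-of-ratios scaling, which moved the median log2 difference of all tested genes from -0.42 to -0.012, the groups did not overlap for 13.1% of all genes with MKO_PD1 higher and for 13% with MKO_PD1 lower.

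**Figure D1:**
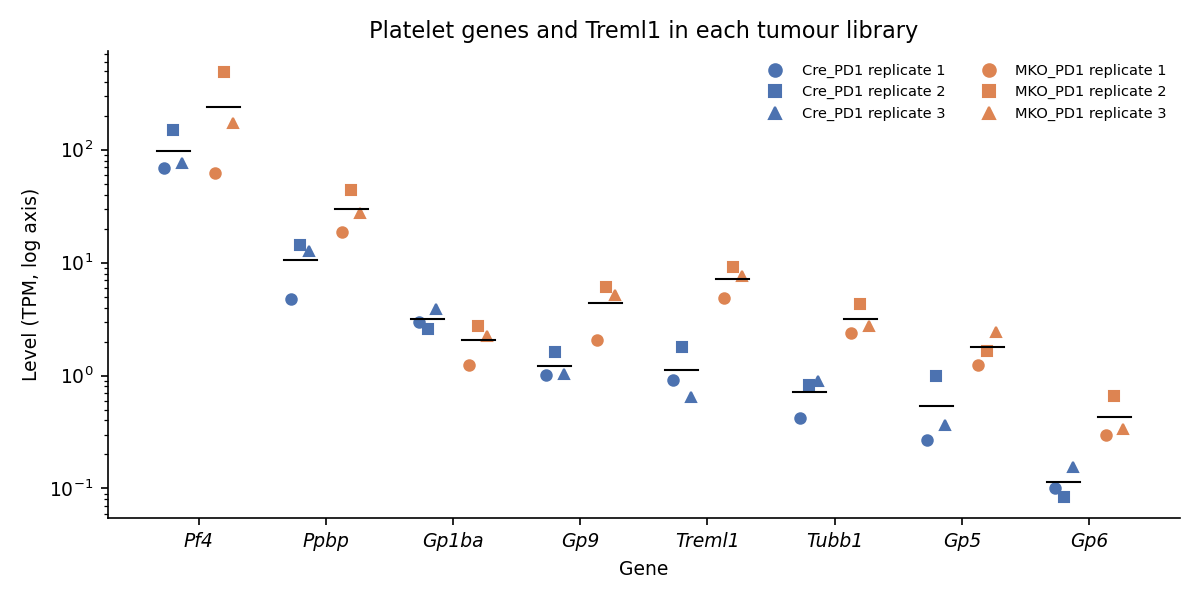
Level of each of the 8 genes with reads, in TPM on a log axis, with 1 point per library and a bar at the mean of each group of 3. Treml1 is at 0.651 to 1.78 TPM in Cre_PD1 compared with 4.90 to 9.14 TPM in MKO_PD1, while the points of Pf4 and Gp1ba overlap between the groups.

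Treml1 (ENSMUSG00000023993.7, mm10, also named GRCm38, chromosome 17 from 48359916 to 48367176, plus strand) was at 0.912, 1.78 and 0.651 TPM in Cre_PD1 replicates 1, 2 and 3. In MKO_PD1 it was at 4.90, 9.14 and 7.62 TPM. All 3 MKO_PD1 libraries were above all 3 Cre_PD1 libraries. These levels rest on 13, 30 and 8 reads in Cre_PD1 and 90, 128 and 113 reads in MKO_PD1. Summed over each group that is 51 reads (exact 95% Poisson interval 38.0 to 67.1) and 331 reads (296.3 to 368.6), intervals that cover counting error only. Mean levels were 1.11 ± 0.592 and 7.22 ± 2.15 TPM (SD, n = 3 each), a ratio of 6.47. The log2 difference of TPM + 1 was 1.96 (SE 0.35), a scale that understates the change of genes near 1 TPM.

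The granule chemokine genes Pf4 and Ppbp lie beside each other on chromosome 5 and were the most abundant of the 9. Pf4 (90772435 to 90773383, plus strand) was at 68.2, 149 and 76.1 TPM in Cre_PD1 replicates 1, 2 and 3 and at 62.5, 487 and 172 TPM in MKO_PD1 replicates 1, 2 and 3. Its highest and its lowest library were both MKO_PD1 tumours, 7.79 times apart. The log2 difference of Pf4 was 0.92 (SE 0.68), and it was 0.18 without MKO_PD1 replicate 2. Ppbp (90768518 to 90770063, plus strand) was at 4.72, 14.2 and 12.6 TPM in Cre_PD1 compared with 18.8, 43.5 and 27.4 TPM in MKO_PD1. Its groups did not overlap, and the log2 difference was 1.47 (SE 0.46).

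Among the genes of the von Willebrand factor receptor, Gp9 and Gp5 were higher in MKO_PD1 and Gp1ba was not. Gp9 (chromosome 6, 87778072 to 87779768) encodes the small subunit that the complex needs to reach the surface. It was at 1.005, 1.61 and 1.04 TPM in Cre_PD1 compared with 2.08, 6.02 and 5.15 TPM in MKO_PD1, a log2 difference of 1.21 (SE 0.38). Gp5 (chromosome 16, 30307685 to 30310779) was at 0.269, 0.986 and 0.364 TPM and at 1.25, 1.64 and 2.45 TPM, with a log2 difference of 0.86 (SE 0.31). The counts behind Gp5 were small, with 6, 26 and 7 reads in Cre_PD1 against 36, 36 and 57 in the MKO_PD1 libraries. Gp1ba (chromosome 11, 70639122 to 70642036), which encodes the subunit that binds von Willebrand factor, was at 2.97, 2.57 and 3.90 TPM in Cre_PD1. In MKO_PD1 it was at 1.23, 2.76 and 2.23 TPM, and the groups overlapped. Its log2 difference was -0.45 (SE 0.32), close to the median of all genes tested (-0.42), and it was -0.13 with median-of-ratios scaling.

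Gp6, whose product signals through the chain encoded by Fcer1g, and Tubb1 were low genes with separate groups. Gp6 (chromosome 7, 4363965 to 4397744) had 6, 6 and 8 reads in Cre_PD1 and 23, 39 and 21 reads in MKO_PD1. Its levels were 0.1, 0.0847 and 0.155 TPM against 0.297, 0.662 and 0.337 TPM. The group sums were 20 reads (95% Poisson interval 12.2 to 30.9) and 83 reads (66.1 to 102.9). Tubb1 (chromosome 2, 174450695 to 174457882) had 6, 14 and 11 reads in Cre_PD1 and 44, 61 and 41 reads in MKO_PD1. That gave 0.420, 0.829 and 0.893 TPM against 2.39, 4.34 and 2.76 TPM, and a log2 difference of 1.26 (SE 0.30). The ratio of mean TPM was 4.43 for Tubb1 and 3.82 for Gp6. The same ratio was 3.63 for Gp9, 3.30 for Gp5, 2.84 for Ppbp, 2.46 for Pf4 and 0.659 for Gp1ba. All of these lay below the 6.47 of Treml1.

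The libraries of 1 group differed among themselves. Among the MKO_PD1 tumours, replicate 2 had the highest level of all 6 libraries for every gene with reads except Gp5, highest in MKO_PD1 replicate 3, and Gp1ba, highest in Cre_PD1 replicate 3. MKO_PD1 replicate 1 was the lowest of its group for all 8 genes. In Cre_PD1, replicate 2 was highest for Treml1, Pf4, Ppbp, Gp9 and Gp5. The spread within MKO_PD1, as highest over lowest library, ran from 1.82 for Tubb1 to 7.79 for Pf4.

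The order of levels within a library differed between the groups in the place of Treml1 and Gp1ba. Pf4 was first and Ppbp second in all 6 libraries, and Gp6 was last. In Cre_PD1, Gp1ba was the third in all 3 libraries and Treml1 was at rank 5, 4 and 6. In MKO_PD1, Treml1 was the third in all 3 libraries and Gp1ba was at rank 7, 6 and 7. Neighbours from Gp9 down to Gp5 in Cre_PD1, in the order Gp9, Treml1, Tubb1 and Gp5, had overlapping ranges. So did the neighbours from Treml1 down to Gp5 in MKO_PD1, in the order Treml1, Gp9, Tubb1, Gp1ba and Gp5.

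How libraries are scaled drops out of a ratio taken inside 1 library, so Treml1 was also set against the other genes as reads per exon base with no pseudocount. Per 100 of the geometric mean of the other 7 genes with reads, Treml1 was at 64.9, 71.4 and 30.6 in Cre_PD1 replicates 1, 2 and 3. In MKO_PD1 replicates 1, 2 and 3 it was at 159, 118 and 143, so the groups did not overlap. The result differed by gene. Per 100 of Tubb1, Treml1 was at 217, 215 and 72.9 in Cre_PD1 and at 205, 210 and 276 in MKO_PD1, and these groups overlapped. They also overlapped for Treml1 against Gp5 and against Gp6. Treml1 was separate and higher in MKO_PD1 against Pf4, Ppbp, Gp9 and Gp1ba. The widest gap was against Gp1ba, 30.7, 69.2 and 16.7 per 100 in Cre_PD1 and 397, 331 and 342 per 100 in MKO_PD1. On the log2 scale of TPM + 1, the level of Treml1 minus the mean of the other 8 genes was -0.78 ± 0.31 in Cre_PD1 and 0.47 ± 0.078 in MKO_PD1 (SD, n = 3 each). That difference of 1.26 includes Gp1bb at 0 and is 1.16 without it. The pseudocount of 1 changed which single genes gave separate groups: with it the difference from Gp5, Gp6, Tubb1, Gp9 and Gp1ba did, and that from Pf4 and Ppbp overlapped.

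**Figure D2:**
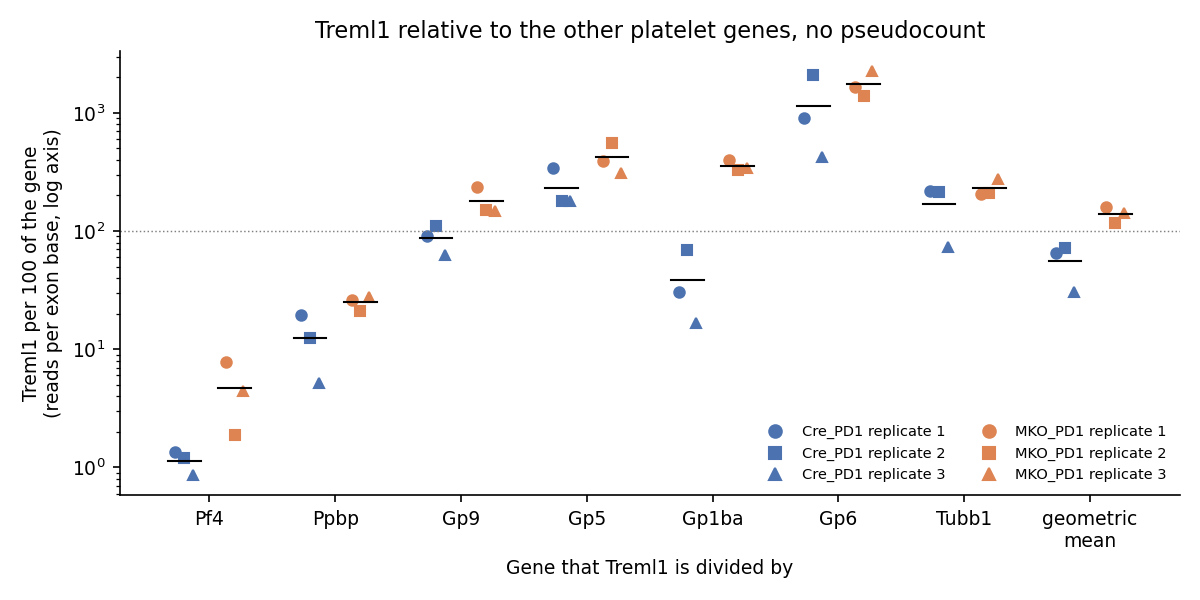
Treml1 per 100 of each other gene, as reads per exon base on a log axis, with 1 point per library, a bar at each group mean and a dotted line at 100. Against Gp5, Gp6 and Tubb1 the groups overlap, while against Gp1ba the MKO_PD1 libraries are at 331 to 397 and the Cre_PD1 libraries at 16.7 to 69.2.

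Gp1ba and Gp5 encode parts of 1 receptor, with separate groups for Gp5 and overlapping groups for Gp1ba, and Treml1 had the largest difference. The start regions of Treml1, Gp5 and Gp1ba are therefore shown. That of Gp6, also shown, is the remaining window with a match to the letters marked below. The window of Gp9, another part of the receptor, held no such match and is not printed. Each printed region is the 250 bases before the gene's start, written 5′ to 3′ on the gene's strand, from RefSeq on GRCm38.p6. Capitals mark AGATAA or TGATAA on either strand, forms of the site read by GATA factors such as the megakaryocyte regulator Gata1. Other forms of that site, such as agatag in the Gp5 window, were not marked or counted. The windows are chr17:48359666-48359915 (plus strand) for Treml1, chr16:30310782-30311031 (minus) for Gp5, chr11:70638872-70639121 (plus) for Gp1ba and chr7:4397745-4397994 (minus) for Gp6.
Treml1: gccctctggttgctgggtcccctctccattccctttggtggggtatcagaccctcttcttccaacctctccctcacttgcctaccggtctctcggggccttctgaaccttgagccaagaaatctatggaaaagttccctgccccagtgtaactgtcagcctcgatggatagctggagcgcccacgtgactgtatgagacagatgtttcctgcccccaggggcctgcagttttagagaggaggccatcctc
Gp5: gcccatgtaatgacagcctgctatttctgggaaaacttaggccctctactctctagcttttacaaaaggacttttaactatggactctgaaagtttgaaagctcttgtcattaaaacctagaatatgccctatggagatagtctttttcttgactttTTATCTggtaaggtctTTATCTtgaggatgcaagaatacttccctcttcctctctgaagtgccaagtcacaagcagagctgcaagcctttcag
Gp1ba: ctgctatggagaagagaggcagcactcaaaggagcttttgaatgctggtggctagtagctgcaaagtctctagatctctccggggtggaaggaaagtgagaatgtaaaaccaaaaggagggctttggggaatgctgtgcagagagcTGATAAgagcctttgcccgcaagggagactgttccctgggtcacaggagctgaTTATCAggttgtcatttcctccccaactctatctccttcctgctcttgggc
Gp6: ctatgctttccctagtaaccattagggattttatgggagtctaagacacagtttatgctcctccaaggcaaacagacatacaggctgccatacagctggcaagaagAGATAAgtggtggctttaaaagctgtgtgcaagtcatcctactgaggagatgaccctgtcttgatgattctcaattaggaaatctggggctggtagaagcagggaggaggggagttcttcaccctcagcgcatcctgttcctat

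All 9 genes had an entry among the RefSeq start regions, and 3 of the 9 windows held a GATA match, against 16.6% of 32851 windows of this length. Gp5 held 2 matches, at 93 and 77 bases before the start, and Gp1ba held 2, at 104 and 51 bases, where 2.7% of all windows held 2 or more. Gp6 held 1 match at 144 bases. A match to CAGGAA or CCGGAA, letters read by ETS factors, was in 4 of the 9 windows (Treml1, Ppbp, Gp1ba and Tubb1) and in 35.1% of all windows. In Treml1 it lay 45 bases before the start, on the minus strand. The matches are a description of letters. The part of these matches in the levels of the 9 genes was not tested.

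The other platelet and megakaryocyte genes were higher in some cases and lower in others. The 4 lists hold 39 genes in all (receptors, granule contents, signalling and cytoskeleton, transcription factors), of which 31 were tested. The groups were separate with MKO_PD1 higher for 9 of the 39 (7.12% of all genes with reads), separate and lower for 3 (17.7% of all genes) and overlapping for 27. In limma with Benjamini-Hochberg adjustment over all 16506 genes, 0 of the 31 passed the threshold of 0.05, where 0.0121% of all genes passed, and 0.00606% passed as higher in MKO_PD1. At an unadjusted p under 0.05 there were 5 higher (8.47% of all genes) and 3 lower (19.5% of all genes). Limma voom on recovered reads also called 0. At an unadjusted p under 0.05 it had 9 of 30, as did 4719 of 15891 genes in that fit. With median-of-ratios scaling limma called 0 of the 31 and 20 had an unadjusted p under 0.05, as did 5037 of 16379 genes in that fit. The median log2 difference was 0.36 over the 31, and -0.42 over all genes tested. It was 1.21 over the 7 of the 9 genes that passed the filter and 1.07 over the 8 with reads. Both values are fixed in part by how the genes were chosen. Of the 7, Gp5 and Tubb1 passed only through the MKO_PD1 libraries, and Treml1 reached 1 TPM in 1 Cre_PD1 library. Without MKO_PD1 replicate 2, 10 of 30 list genes passed, 3 higher and 7 lower, in a fit where 45.9% of all genes passed. Of the 15940 genes in that fit, 1256 passed as higher and 6058 as lower.

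Of the 13 receptor genes, the groups were separate and higher in MKO_PD1 for 2 (7.12% of all genes with reads) and separate and lower for 1 (17.7% of all genes). Clec1b, whose product is the platelet receptor for podoplanin, was at 3.45, 6.54 and 4.09 TPM in Cre_PD1 against 22.8, 8.75 and 18.2 TPM in the MKO_PD1 libraries (log2 difference 1.57, SE 0.41; limma adjusted p = 0.168). It was highest in MKO_PD1 replicates 1 and 3, not in replicate 2. Liver endothelium and Kupffer cells also express Clec1b. The integrin genes Itga2 and Itgb3 were lower in MKO_PD1, at 97.3 ± 37.0 and 32.7 ± 27.2 TPM for Itga2 and at 32.9 ± 6.64 and 19.3 ± 9.88 TPM for Itgb3. Their limma adjusted p was 0.168 and 0.198. Itga2b, named after its values were seen because it encodes the platelet integrin chain, was at 5.18, 6.41 and 4.79 TPM in Cre_PD1 compared with 6.18, 10.6 and 6.55 TPM in MKO_PD1, and the groups overlapped.

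No granule gene outside the 9 had separate groups. F13a1, encoding a clotting factor chain also made by macrophages, was at 9.24, 14.9 and 5.25 TPM in Cre_PD1 compared with 7.55, 53.7 and 18.4 TPM in the MKO_PD1 libraries (limma adjusted p = 0.281). The highest library was MKO_PD1 replicate 2, as for Pf4, and MKO_PD1 replicate 1 lay inside the Cre_PD1 range. Vwf, which endothelium expresses too, was at 1.02 ± 0.231 and 1.39 ± 0.484 TPM (adjusted p = 0.553 in limma). Serpine2 was at 9.75 ± 1.43 and 7.18 ± 6.62 TPM (adjusted p = 0.368 in limma).

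Signalling and cytoskeleton genes went both ways. Rasgrp2, encoding the exchange factor that activates Rap1 in platelets, was at 2.61 ± 0.911 TPM in Cre_PD1 compared with 6.16 ± 0.708 TPM in the MKO_PD1 libraries (log2 difference 1.02, SE 0.31; limma adjusted p = 0.168). Bin2 was at 15.2 ± 2.51 and 28.9 ± 11.7 TPM (adjusted p = 0.169 in limma). Rab27b, encoding a GTPase of granule secretion, was lower in MKO_PD1, at 20.7 ± 2.48 and 8.77 ± 7.08 TPM (adjusted p = 0.168 in limma).

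Of the 7 megakaryocyte transcription factor genes, 4 had separate groups with MKO_PD1 higher (7.12% of all genes with reads) and 1 with MKO_PD1 lower (17.7% of all genes). Nfe2, a factor needed for platelet formation, was at 1.18, 1.87 and 1.15 TPM in Cre_PD1 compared with 4.98, 5.26 and 5.25 TPM in the MKO_PD1 libraries (log2 difference 1.37, SE 0.28; limma adjusted p = 0.168). The MKO_PD1 libraries differed by less for Nfe2 than for any of the 9 genes, with the highest 1.06 times the lowest. Tal1 was at 1.24 ± 0.251 and 3.13 ± 1.32 TPM (adjusted p = 0.168 in limma), and Zfpm1, encoding the Gata1 partner FOG1, at 93.6 ± 25.2 and 53.3 ± 13.4 TPM (adjusted p = 0.168 in limma). Gata1 and Gfi1b did not pass the filter and are named after their values were seen. Gata1 had 8, 9 and 7 reads in Cre_PD1 and 31, 39 and 37 reads in MKO_PD1. Gfi1b had 0, 2 and 1 reads against 8, 21 and 12. Nfe2, Gata1, Gfi1b and Tal1 are also genes of red cell precursors, and Nfe2 is expressed in granulocytes.

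**Figure D3:**
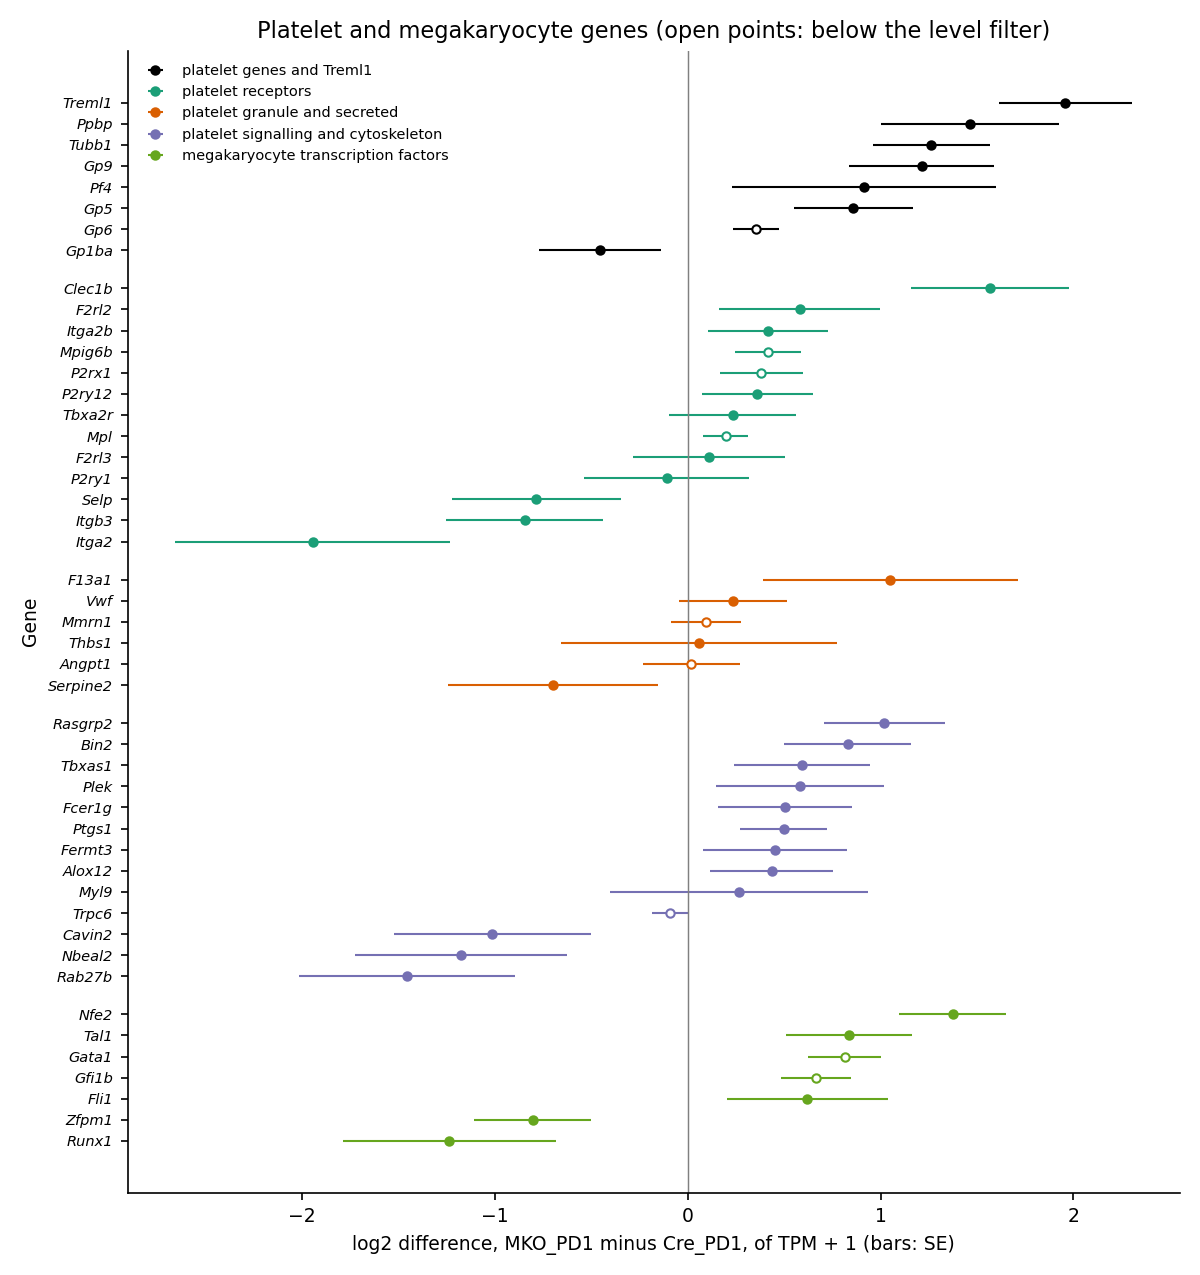
Log2 difference of TPM + 1, MKO_PD1 minus Cre_PD1, with its SE, for the 8 genes with reads (black) and the 39 genes of the 4 other platelet and megakaryocyte lists; open points are genes below the level filter. Treml1 is at 1.96 and Gp1ba at -0.45, and the 39 other genes lie on both sides of 0.

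Treml1 lies in the Trem gene cluster, 5768 bases after the end of Trem2, the gene knocked out in the MKO_PD1 hosts. Trem2 was at 10.5, 16.5 and 14.9 TPM in Cre_PD1 compared with 7.68, 18.0 and 6.81 TPM in MKO_PD1, and the groups overlapped (log2 difference -0.44, SE 0.40; limma adjusted p = 0.432). On the other side Nfya, which lies 19708 bases after the end of Treml1, was at 29.6 ± 4.45 and 17.6 ± 8.27 TPM and overlapped too. Within the cluster, B430306N03Rik (also named Treml6) was at 4.21, 5.13 and 5.82 TPM in Cre_PD1 compared with 11.8, 16.0 and 11.2 TPM in the MKO_PD1 libraries (adjusted p = 0.168 in limma). Treml4 was at 7.58, 10.01 and 10.9 TPM and at 38.2, 16.5 and 29.4 TPM, with the highest value in MKO_PD1 replicate 1. Trem3 was at 1.39 ± 0.482 and 4.92 ± 2.94 TPM. These 3 genes had separate groups with MKO_PD1 higher, as had 7.12% of all genes with reads, and Trem1 and Treml2 overlapped. The limma adjusted p was 0.168 for Treml4 and Trem3, and 0 of the 6 Trem family genes passed, with 3 higher at an unadjusted p under 0.05 (8.47% of all genes), and limma voom called 0 of all genes. Without MKO_PD1 replicate 2, in the fit that called 45.9% of all genes, Trem2 was at -0.84 (limma adjusted p = 0.045), Treml4 at 1.73 (0.029), B430306N03Rik at 1.05 (0.0292) and Nfya at -1.14 (0.0316). Myeloid cells express these Trem genes, and the labels do not name the part of Trem2 that was deleted.

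**Figure D4:**
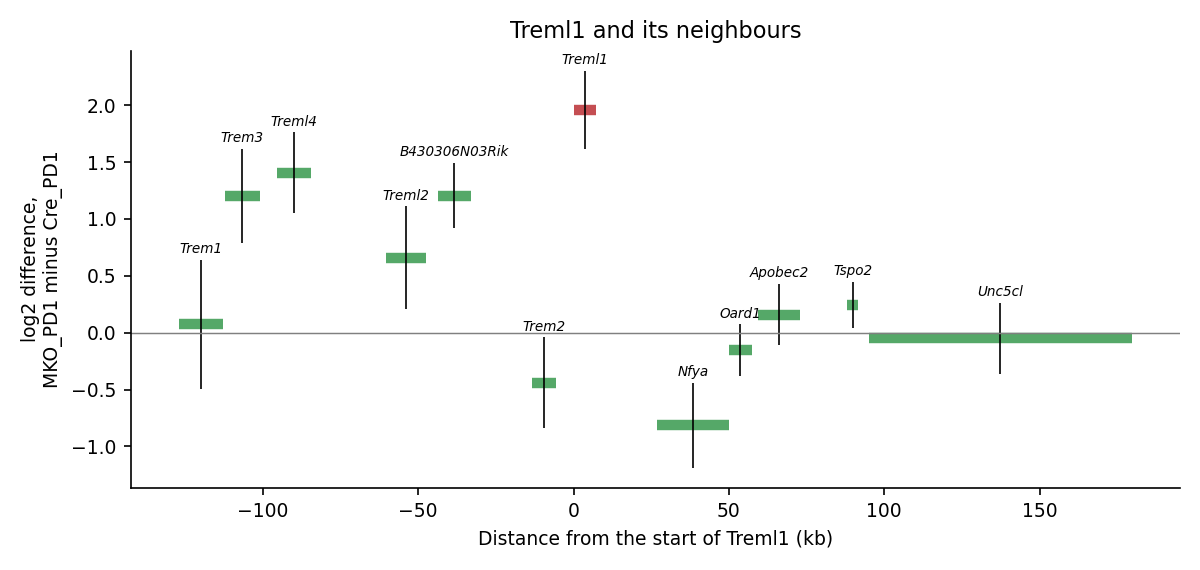
Log2 difference of TPM + 1, MKO_PD1 minus Cre_PD1, of the protein-coding genes around Treml1 against distance from its start in kb; thick bars span each gene and thin bars are the SE. Treml1 is at 1.96, its neighbour Trem2 at -0.44 and Nfya on the other side at -0.81.

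The genes most like Treml1 over the 6 libraries, by the root mean square deviation of centred log2(TPM + 1), were not platelet genes. Among 13368 genes compared, the closest 5 were Arg1 (0.303), Retnlg (0.307), Ccl9 (0.311), Mir142b (0.317) and Prg2 (0.351). Arg1 is an enzyme gene of myeloid cells and hepatocytes, Retnlg a neutrophil gene, Ccl9 a chemokine gene of myeloid cells and Prg2 a granule protein gene of eosinophils. Mir142b is a microRNA entry of 115 bases with few reads, 3, 5 and 1 in Cre_PD1 and 12, 13 and 9 in MKO_PD1. Of the 9, the nearest to Treml1 were Gp9 (0.415) and Tubb1 (0.440), and Gp1ba was the farthest (1.25). Closest to the mean of the other 8 genes were Rnf144a (0.075), Tal1 (0.093), Slc43a3 (0.1), Hand2os1 (0.101) and Apbb1ip (0.117). The deviation depends on the size of a gene's change on the log2(TPM + 1) scale, which the pseudocount shrinks for low genes.

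Other cells differed between the libraries as well. The 10 neutrophil markers all had reads and summed to 99.0 to 221 TPM in Cre_PD1 compared with 280 to 1148 TPM in MKO_PD1, highest in MKO_PD1 replicate 2 like most of the 9 genes. The 9 platelet genes themselves summed to 78.6 to 171 TPM and 93.4 to 555 TPM, mostly Pf4. Of 9 red cell markers 8 were analysed, and they summed to 1142 to 4516 TPM in Cre_PD1 compared with 1737 to 3032 TPM in MKO_PD1, with Epb42 at 0 in Cre_PD1 replicate 3. The 8 macrophage markers summed to 2140 to 2559 and 2438 to 4454 TPM and the 8 endothelial markers to 107 to 137 and 179 to 239 TPM. Among 8 basophil and mast cell markers, summing to 8.41 to 14.5 and 14.9 to 35.7 TPM, Prss34 was at 0 in Cre_PD1 replicates 2 and 3. The 8 T and B cell markers summed to 31.4 to 74.0 and 35.7 to 129 TPM. Like the neutrophil sum, the macrophage, basophil and mast cell, and T and B cell sums were highest in MKO_PD1 replicate 2. The endothelial sum was highest in MKO_PD1 replicate 1 and the red cell sum in Cre_PD1 replicate 1. The part of these cells in the levels of the 9 genes was not tested.

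The tissue labels were checked on markers. All 14 hepatocyte and all 6 tumour epithelium markers had reads in every library. The hepatocyte markers took 1.49 to 2.95% of TPM in Cre_PD1 compared with 15.3, 3.64 and 10.7% in MKO_PD1 replicates 1, 2 and 3, and the part of this in the results was not tested. For the tumour epithelium markers the share was 0.738 to 1.36% of TPM across the Cre_PD1 libraries, against 0.14 to 0.45% across MKO_PD1. The groups were separate with MKO_PD1 lower for 4 of the 6, as for 17.7% of all genes with reads. Itga2, Rab27b and Zfpm1 were lower in the same libraries, and the part of tumour epithelium in their levels was not tested. The hepatocyte order of the MKO_PD1 libraries was the reverse of that of Treml1, which was lowest in replicate 1 and highest in replicate 2. Recovered reads per library ranged from 26747523 to 34265171.

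**Figure D5:**
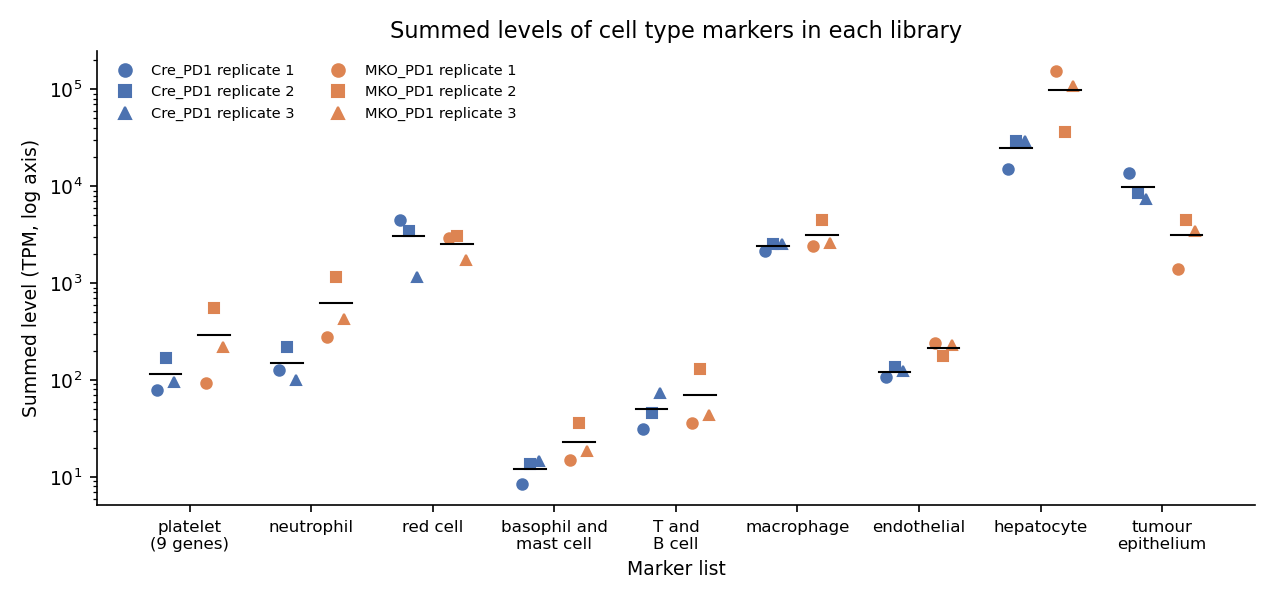
Summed level of each marker list in TPM on a log axis, with 1 point per library and a bar at each group mean. The 9 platelet genes and the neutrophil, macrophage, basophil and mast cell, and T and B cell markers are highest in MKO_PD1 replicate 2. The hepatocyte and endothelial markers are highest in MKO_PD1 replicate 1.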

How the data were processed

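Polyadenylated RNA of 6 mouse liver tumours, 3 per group, was analysed from 1 deposited table. The submitters' processing notes list STAR 2.7.10a, featureCounts 2.0.3 and mm10, with no further steps. The table is named as TPM, but the deposited values are a length-normalised read signal whose column sums ran from 70363 to 105281. Multiplied by exon length (GENCODE M21) and divided by a constant of 8.028, they gave whole reads, within 0.01 reads, for 29362 of 29802 genes (98.5%).

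Each column was rescaled to a total of 1000000 (TPM) and analysed as log2(TPM + 1). The 16506 genes that reached 1 TPM in 3 or more libraries went into limma 3.58.1 under R 4.3.3 (trend option, no covariates), and p-values were adjusted over all of them by the Benjamini-Hochberg method. Groups are separate where their ranges do not overlap. The code of the test was checked on simulated counts with equal changes up and down. Those counts lack the shift in hepatocyte RNA seen here, so the check does not show how the test performs on these tumours. Each p-value sets the difference between the groups against the spread between these samples, 3 mice per group by the design text. Limma moderates that spread using all genes tested.

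The 9 genes and all lists were chosen with earlier results of these data known. Named were the 9 genes, the Trem family and the genes beside Treml1. Up to 3 genes of smallest p were named in each of the 4 other platelet lists. The 5 genes most like Treml1 and most like the mean of the others were also named. That comparison left out the 9 genes, predicted genes, receptor segments and pseudogenes. Alternatives changed the pseudocount of 1 (to 0.1 or 0.5), filter (none, 5 TPM), scaling, replicate block, each library in turn and the unit (limma voom on recovered reads). Leaving out MKO_PD1 replicates 1 and 3, and Gp1bb from the mean, was added after seeing the data.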

Additional observations from a re-analysis of the deposited data

How the results depend on the processing

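The log2 differences of the 8 genes with reads kept their sign under every alternative that gave a value. Gp1ba was negative throughout, between -0.63 and -0.13. Several alternatives gave no value for some genes. Gp6 gave a value only with no filter, and at 5 TPM only Pf4 and Ppbp did. Gp5 and Tubb1, which passed the filter only through the MKO_PD1 libraries, gave none when an MKO_PD1 library was left out. Treml1 gave none without MKO_PD1 replicates 1 and 3. The median over the genes passing the filter, 1.21, was 1.67 with a pseudocount of 0.1 and 1.81 with limma voom on recovered reads. It was 1.87 without MKO_PD1 replicates 1 and 3, where 4 genes were left and replicate 2 was the only MKO_PD1 library. Treml1 minus the mean of the other 8, 1.26, was 1.59 with a pseudocount of 0.1 and 1.58 in recovered reads, and ranged from 1.08 to 1.36 without each library in turn. Over all genes limma called 2, against 0 with no filter, 0 at 5 TPM, 1 with median-of-ratios scaling and 0 with voom. Without each library in turn the count ran from 0 to 7314, the highest without MKO_PD1 replicate 2. For the 39 other platelet and megakaryocyte genes it ran from 0 to 10 in the same way.

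Same-numbered tumours had correlations of deviations of -0.42, -0.27 and 0.049, and tumours of different number had correlations from -0.23 to 0.39. With 3 tumours per group these values cannot show whether the numbers pair the tumours. With the replicate block limma called 0 genes. Trem1, at 0.072, was at -0.061 without Cre_PD1 replicate 1, and without each library in turn it ranged from -0.52 (MKO_PD1 replicate 2) to 0.69 (MKO_PD1 replicate 1). Trem2, at -0.44, was at -0.84 without MKO_PD1 replicate 2 (limma adjusted p = 0.045). It was at 0.36 without MKO_PD1 replicates 1 and 3, where replicate 2 was the only MKO_PD1 library. Serpine2, at -0.70, was at -1.33 (limma adjusted p = 0.0292) and 0.56 in those 2 fits, at -0.19 without MKO_PD1 replicate 1 and at -0.32 with median-of-ratios scaling. The cause was not tested for any of these. Most of the 9 genes had under 100 reads in each library, which limits their precision.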

Other observations

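Slc4a1, encoding the anion exchanger of red cells, was at 1.69, 1.004 and 0.373 TPM in Cre_PD1 compared with 2.20, 8.18 and 2.75 TPM in the MKO_PD1 libraries (limma adjusted p = 0.168). The haemoglobin gene Hbb-bs was at 2768, 2165 and 672 TPM against 1829, 1870 and 1058 TPM, and its groups overlapped.

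Of the 10 neutrophil genes, 7 had separate groups with MKO_PD1 higher, where 7.12% of all genes with reads did. They include Mpo and Elane, which encode granule enzymes made in granulocyte precursors. Mpo was at 1.01, 1.85 and 1.70 TPM in Cre_PD1 compared with 4.08, 15.6 and 5.41 TPM in MKO_PD1, and Elane at 1.70, 5.42 and 2.78 TPM against 10.7, 31.9 and 10.3 TPM (limma adjusted p = 0.168 for each). These genes were named after their values were seen.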
